A study of Mus musculus with 7 samples.

Results

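The collagen and stromal matrix genes described here are 10 genes: the fibrillar collagen genes Col1a1, Col1a2 and Col3a1, the matrix glycoprotein genes Fn1, Postn and Sparc, the small leucine-rich proteoglycan genes Dcn and Lum, and the platelet-derived growth factor receptor genes Pdgfra and Pdgfrb. Chromatin regions were given to these genes by position: a region belonged to a gene when, of all protein-coding transcription start sites (TSS), one of that gene lay nearest to the midpoint of the region. By this rule 102 of the 119215 regions found in either cell population belonged to the 10 genes, each of which had at least 1 region, out of 17374 protein-coding genes with a region. The data came from ATAC-seq, which uses a transposase to place sequencing adapters in accessible chromatin. The cells were mammary tumour cells from MMTV-PyMT mice, in which the mouse mammary tumour virus promoter drives the polyoma middle T oncoprotein in the mammary gland. These mice, bred on C57BL/6, also carried a BAC-based Dll1-mCherry reporter, a transgene that labels cells in which the gene of the Notch ligand Dll1 is active. After digestion of the tumours, cells with CD45, CD31 or Ter119 on their surface were sorted away, and the remaining lineage-negative cells were split by the reporter, with Dll1+ standing for mCherry+ and Dll1- for mCherry- cells. All 7 samples therefore share the transgene, the reporter and the depletion, and differ in mCherry. There were 3 Dll1+ and 4 Dll1- samples from 4 tumours, of which 3 gave both. The antibodies named for the depletion mark leukocytes, endothelial cells and erythroid cells. Whether other antibodies were used against fibroblasts or pericytes was not examined here.

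The extracellular matrix of the mammary stroma is laid down mainly by fibroblasts. Type I collagen, built from the products of Col1a1 and Col1a2, and type III collagen, from Col3a1, form its fibrils. Fibronectin, periostin and SPARC bind collagen and cells, decorin and lumican space the fibrils, and the receptors PDGFRα and PDGFRβ are carried by fibroblasts and by pericytes, the cells that wrap small vessels. Tumour epithelial cells can also transcribe several of these genes, Fn1 and Sparc among them, and in such cells this is often described as part of an epithelial to mesenchymal transition.

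The values analysed were 2 peak lists, 1 per population, each made from the pooled samples of that population. A difference between the populations was therefore not set against the spread between tumours, which was not examined here, and no test was made. Each row of a list gives an interval, a summit and a fold enrichment, which is the number of reads at the summit over the local background. Strength was compared by rank: the percentile of a row is its rank by fold enrichment among the rows of the same list, in percent. Ranks run from the weakest row up, and rows with equal fold enrichment took the mean of their ranks. The lists differed in depth. The genome-wide background recovered from the deposited values was 3.74 reads for Dll1+ against 7.20 for Dll1-, a ratio of 1.93, so a weak region was easier to call in Dll1- cells, and a region missing from the Dll1+ list was not called at that depth rather than shown to be closed. Regions with rows of both lists are called shared, and the others Dll1+ specific or Dll1- specific.

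With all rows of both lists, the matrix genes held 47 regions that were called in Dll1- cells alone and 1 that was called in Dll1+ cells alone. Both lists held 54 of their 102 regions (52.9%, 95% Wilson interval 43.3 to 62.3%). The Dll1- specific class had 47 (46.1%, 36.7 to 55.7%), against 24.6% of all regions. The Dll1+ specific class had 1 (0.980%, 0.173 to 5.35%), against 9.01% of all regions. That count was higher with fewer rows: it was 7 of 81 regions with the 100000 rows of highest -log10 p in each list, against 12.0% of all regions, and 3 of 57 with rows at or above the median fold enrichment of their list, against 9.44%. These intervals take the regions as independent and cover counting error only, although neighbouring regions are no replicates. Intervals from read counts, given below, also cover counting error only, and the reads carry no molecular identifiers. Gene by gene, 9 of the 10 genes had more Dll1- specific than Dll1+ specific regions, against 51.7% of all genes with a region. The excess went the other way in 0 of the 10, against 11.3% of all genes. The exception was Lum, whose single region was shared. This tally changed with the rows used. With rows at or above the median, 5 of the 10 genes had the excess, against 39.0% of all genes, and Postn had the opposite. With 100000 rows of each list, 7 had it, against 35.4% of all genes, and Postn and Dcn had the opposite. Whether the Dll1- sort held more cells of a type that uses these genes, or the same cells had more open chromatin there, cannot be told apart in pooled populations. Nor can either be told apart from the greater depth of the Dll1- list or from the tumour that gave Dll1- cells alone.

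**Figure D1:**
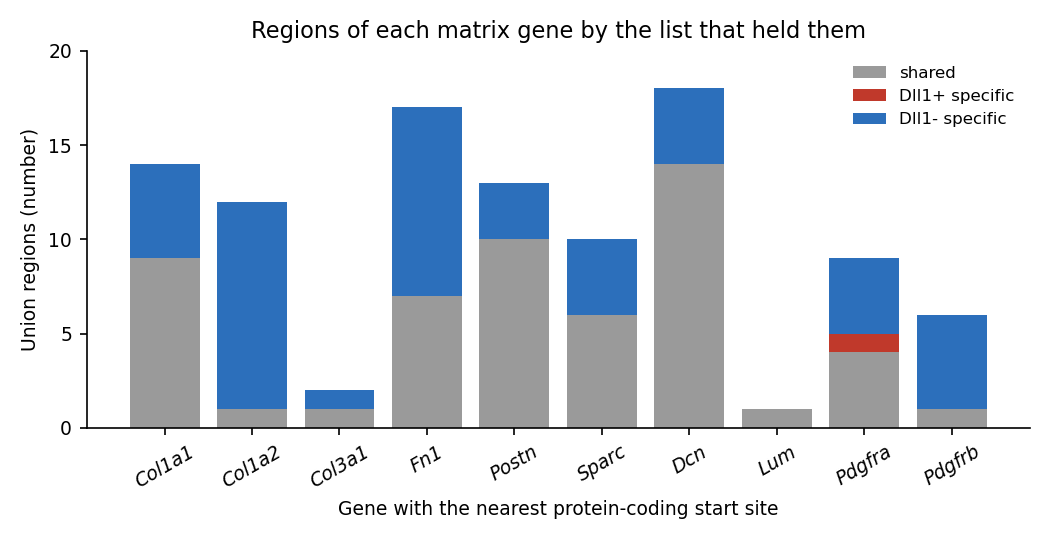
Stacked bars give the number of union regions assigned to each of the 10 matrix genes, with shared regions in grey, Dll1- specific regions in blue and Dll1+ specific regions in red. Blue fills 11 of the 12 regions of Col1a2 and 5 of the 6 of Pdgfrb, and the single red region is at Pdgfra.

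Among the fibrillar collagen genes, most Dll1- specific regions were at Col1a2. Col1a2, which encodes the α2 chain of type I collagen, lies on chromosome 6 at 4504814 to 4541544 on the plus strand. It had 11 Dll1- specific regions, 1 shared region and 0 Dll1+ specific regions. The regions lay from 155.3 kb upstream to 40.4 kb downstream of the TSS. Among the 3717 genes with at least 10 regions, 1 gene had a Dll1- specific share as high as the 91.7% of Col1a2, and that gene was Col1a2 itself. Its excess of 11 Dll1- specific regions was matched or passed by 92 genes, Col1a2 included, which is 0.530% of the genes with a region. This place among all genes was noted after the counts were seen and is given as a description.

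The Col1a2 regions included the start of its protein-coding transcript. The promoter region, at chr6:4505213-4505899, was in the Dll1- list with a fold enrichment of 5.12 (percentile 51.6) from 41 reads. The Dll1+ list had no row over it, and its nearest row lay 73712 bp away. The strongest Dll1- specific region of Col1a2, and of all 10 genes, was intergenic, at chr6:4488368-4488661, 16.98 kb upstream of the TSS. Its fold enrichment was 8.17 (percentile 74.3), from 66 reads, and the nearest Dll1+ row was 56867 bp away. Farther upstream, 6 regions lay within 24.7 kb, between 97.6 and 73.2 kb from the TSS (chr6:4407809-4432483). Of these, 5 were Dll1- specific, with fold enrichments from 3.42 to 5.85, and 1 was shared. The shared one, at -74.3 kb, was the only Dll1+ call at the gene, with a fold enrichment of 5.28 from 24 reads in Dll1+ against 5.49 from 44 reads in Dll1- cells. A further pair of Dll1- specific regions lay beyond the 3′ end of the gene at 39.3 and 40.4 kb, with fold enrichments of 4.63 and 6.10.

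The sequences of both Col1a2 sites are shown because no Dll1+ row lay within 50 kb of either. They are the 100 bases each side of the summit of the region at -16.98 kb (chr6:4488414-4488614, plus strand, GRCm38.p6) and the 250 bases before the TSS of its protein-coding GENCODE transcript (chr6:4505243-4505492, plus strand). That TSS lies inside the span of the gene given above, so the second window does too. The first contains no AP-1 sequence TGACTCA on either strand, and the second contains no TGACTCA, no TATAAA and no CCAAT on either strand, so neither has capitals.
Col1a2 upstream window: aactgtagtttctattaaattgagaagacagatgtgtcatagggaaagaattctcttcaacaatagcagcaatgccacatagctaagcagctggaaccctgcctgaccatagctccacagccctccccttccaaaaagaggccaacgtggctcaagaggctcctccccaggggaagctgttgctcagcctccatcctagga
Col1a2 promoter: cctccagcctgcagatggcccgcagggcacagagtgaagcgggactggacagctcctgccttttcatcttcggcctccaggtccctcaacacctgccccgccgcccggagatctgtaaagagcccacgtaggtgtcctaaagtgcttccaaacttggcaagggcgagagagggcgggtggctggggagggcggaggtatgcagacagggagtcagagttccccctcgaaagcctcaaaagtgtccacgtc
Across the first 250 bases of 32851 RefSeq promoters, TATAAA was found in 12.4%, CCAAT in 33.8% and TGACTCA in 4.46%. The RefSeq start of Col1a2 lies farther downstream, inside the 5′ untranslated region of the GENCODE transcript. The bases between these starts are therefore not in the printed promoter window and were not searched. The absence of these letters says only that they are not in these windows, and not that the Col1a2 promoter lacks them.

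Col1a1, which encodes the α1 chain that joins the product of Col1a2 in type I collagen, had mostly shared regions. It lies on chromosome 11 at 94936224 to 94953042 on the plus strand and had 9 shared regions, 5 that were Dll1- specific and 0 that were Dll1+ specific. Neither list had a row in its promoter, defined here as the 1000 bp before and the 100 bp after a TSS. The nearest region began inside the gene and had its midpoint 1.25 kb downstream of the TSS in an intron. It was shared, with a fold enrichment of 8.30 from 87 reads in Dll1+ cells (percentile 70.8) and 6.46 from 136 reads in Dll1- cells (percentile 63.6). A group of 7 regions lay 55.2 to 69.5 kb upstream. Its strongest region, at -61.1 kb, was shared and ranked higher in the Dll1+ list (percentile 75.5 against 62.4), while 3 regions of the group were Dll1- specific. The strongest Dll1- specific region of Col1a1 was at -69.5 kb, with a fold enrichment of 5.71 from 48 reads. At -19.6 kb a shared region had a rank difference, Dll1+ minus Dll1-, of -30.2 percentile points, with 36 reads against 106. Regions assigned to Col1a1 were thus called in both populations, and the shared ones differed in both directions.

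Col3a1, which encodes the chain of type III collagen, lies on chromosome 1 at 45311538 to 45349706 on the plus strand. It had 2 regions. The intronic region 2.51 kb downstream of its TSS was shared, at nearly the same rank in both lists (percentile 65.2 in Dll1+ and 67.3 in Dll1- cells). The other, 289.2 kb upstream, was Dll1- specific with a fold enrichment of 5.12 from 41 reads. At that distance the assignment to Col3a1 rests on the absence of any nearer coding TSS.

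With all rows, Fn1 had the most Dll1- specific regions among the glycoprotein genes. Fn1 encodes fibronectin and lies on chromosome 1 at 71585520 to 71653200 on the minus strand. Of its 17 regions 7 were shared and 10 were Dll1- specific, and 16 had midpoints upstream of the TSS. The region over the start site was called in both lists as 1 merged region, but the rows differed. In the Dll1- list the row spanned the TSS, and its strongest summit lay 1 bp inside the gene with a fold enrichment of 7.13 from 64 reads (percentile 68.4). In the Dll1+ list the only row began 254 bp inside the gene, with a fold enrichment of 5.28 from 24 reads (percentile 46.6), and did not reach the promoter window. The strongest Fn1 region of all was shared, 240.6 kb upstream, with fold enrichments of 25.9 in Dll1+ and 23.9 in Dll1- cells, above the 99th percentile of both lists. An intronic region 21.98 kb inside the gene was also strong in both, at 19.4 and 12.7. The Dll1- specific regions were weaker, with fold enrichments up to 5.12, at -171.4 kb. They were also far from the gene, and 1 of the 10 lay within 50 kb, at -14.4 kb. Their number changed with the rows used, and became 6 past the 10th percentile after scaling to the depth of the Dll1+ list, 3 with 100000 rows and 2 at or above the median fold enrichment. In the last 2 settings Sparc had more, with 7 and 4.

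Postn encodes periostin, a collagen-binding protein of remodelling stroma. It lies on chromosome 3 at 54361109 to 54391037 on the plus strand and had 13 regions, 10 of them shared and 3 Dll1- specific. With 100000 rows of each list, and likewise at or above the median fold enrichment, 0 were Dll1- specific and 1 was Dll1+ specific. Its promoter region, at chr3:54360933-54361172, was Dll1- specific but weak, with a fold enrichment of 3.58 from 33 reads (percentile 29.3). The nearest Dll1+ row was 1738 bp away, in the shared region 2.28 kb upstream. The strongest Dll1- specific region lay 12.3 kb inside the gene in an intron, with a fold enrichment of 4.28 from 36 reads and a Dll1+ row 319 bp away. Shared regions of Postn differed in both directions, with a median rank difference of 0.886 percentile points. The one at -2.28 kb ranked lower in Dll1+ cells, at percentile 74.4 from 45 reads against 84.8 from 104 reads. Others were stronger in Dll1+ cells. At -86.2 kb the fold enrichment was 7.18 from 33 reads in the Dll1+ list (percentile 63.7) and 3.05 from 24 reads in the deeper Dll1- list (percentile 19.2), and in the intron at 11.4 kb it was 13.5 from 99 reads against 9.02 from 78 reads. The regions 82.9 and 119.3 kb downstream were above the 99th percentile in both lists. The second of these lies at a promoter of the non-coding gene Gm5641.

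The 250 bases before the Postn start (chr3:54360857-54361106, plus strand, GRCm38.p6, from the RefSeq promoter table) are shown because the Dll1- specific promoter region covers most of them. Capitals mark TATAAA, the TATA box sequence, which begins at position -26 from the RefSeq start. The site is on the coding strand. The promoters of Col1a2 and Postn and the Col1a2 upstream window were chosen for printing after their values were seen.
Postn promoter: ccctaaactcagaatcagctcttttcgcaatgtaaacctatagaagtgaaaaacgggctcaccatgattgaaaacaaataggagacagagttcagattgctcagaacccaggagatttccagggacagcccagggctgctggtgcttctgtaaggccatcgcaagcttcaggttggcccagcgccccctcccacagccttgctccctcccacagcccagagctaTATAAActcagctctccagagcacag

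Sparc encodes SPARC, a collagen-binding glycoprotein also made by epithelial tumour cells and endothelium. It lies on chromosome 11 at 55394500 to 55423183 on the minus strand. It had 10 regions, 6 of them shared and 4 Dll1- specific, all within 50 kb of a TSS. With 100000 rows of each list these became 3 shared and 7 Dll1- specific regions. Sparc was 1 of the 2 matrix genes with a promoter row in both lists. In the region 0.828 kb upstream of its outermost TSS the fold enrichment was 4.22 from 19 reads in Dll1+ cells (percentile 32.5) and 7.35 from 84 reads in Dll1- cells (percentile 69.8). Relative to the genome-wide background the log2 ratio of Dll1+ to Dll1- reads there was -1.20 (95% exact interval from counts -2.00 to -0.47), the lowest of the 54 shared regions. At an inner start site the values were 3.28 from 17 reads and 4.40 from 56 reads. Sparc shared regions ranked lower in the Dll1+ list in 5 of 6, with a median difference of -12.0 percentile points. The exception, 33.3 kb downstream, was also the strongest, with 17.8 in Dll1+ and 13.4 in Dll1- cells. The 4 Dll1- specific regions had the highest median rank among the 10 genes, with fold enrichments of 4.46 to 7.27 and a median percentile of 66.9, and the highest lay 5.16 kb upstream.

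At the proteoglycan genes most regions were shared. Dcn encodes decorin, lies on chromosome 10 at 97479609 to 97518143 on the plus strand, and had more regions than any other member, at 18, of which 14 were shared and 4 Dll1- specific. With 100000 rows of each list 2 were Dll1- specific and 4 Dll1+ specific. All lay upstream, from 9.87 to 416.8 kb away, and neither list had a row in its promoter. Its shared regions ranked higher in the Dll1+ list in 10 of 14, with a median difference of 7.41 percentile points. The strongest in the Dll1+ list, at -42.8 kb, had a fold enrichment of 19.0 from 89 reads in Dll1+ cells and 11.3 from 92 reads in Dll1- cells, a log2 ratio of 0.90 (0.46 to 1.33). Those at -37.1 and -166.1 kb were similar in both lists, at 15.6 and 16.1 and at 14.7 and 15.98. The Dll1- specific regions of Dcn were weak, with a median percentile of 24.9, and the strongest, at -141.3 kb, had a fold enrichment of 5.08. Lum, which encodes lumican and neighbours Dcn (chromosome 10, 97565128 to 97572703, plus strand), had 1 region, 19.3 kb downstream of its TSS and shared, with 8.23 in Dll1+ and 6.59 in Dll1- cells. Neither list had a row in the Lum promoter.

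Both receptor genes had Dll1- specific regions when all rows were used, and neither had one with rows at or above the median fold enrichment. Pdgfra, whose product marks fibroblasts, lies on chromosome 5 at 75152292 to 75198215 on the plus strand and had 4 shared regions, 4 Dll1- specific ones and the only Dll1+ specific region of the 10 genes. That region lay 160.3 kb downstream, with a fold enrichment of 5.07 from 23 reads (percentile 44.0). Pdgfra had a promoter row in both lists. At its strongest start site the fold enrichment was 7.74 from 121 reads in Dll1+ cells (percentile 67.4) and 9.12 from 225 reads in Dll1- cells (percentile 78.6), and the log2 ratio of reads was 0.05 (-0.28 to 0.38). The local background there was 3.95 times the genome-wide value for Dll1+ and 3.30 times for Dll1- cells, which lowers fold enrichments at this gene. Of the Dll1- specific regions, 3 lay within 50 kb. The strongest, 1.36 kb downstream of an inner TSS, had a fold enrichment of 4.67 from 109 reads, and a Dll1+ row was 636 bp away.

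Pdgfrb, whose product marks pericytes and fibroblasts, lies on chromosome 18 at 61045150 to 61085061 on the plus strand. It had 5 Dll1- specific regions, 1 shared region and 0 Dll1+ specific regions, all within 23.4 kb of a TSS. The strongest Dll1- specific region was the promoter region, 0.170 kb upstream, with a fold enrichment of 4.88 from 55 reads (percentile 48.5). The nearest Dll1+ row lay 23242 bp away. The shared region, in an intron 23.4 kb inside the gene, had a fold enrichment of 6.79 from 33 reads in Dll1+ cells and 6.44 from 74 reads in Dll1- cells. The other Dll1- specific regions were weak, from 2.76 to 4.23. With 100000 rows of each list 2 of the class were counted, and past the scaled 10th percentile 3.

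**Figure D2:**
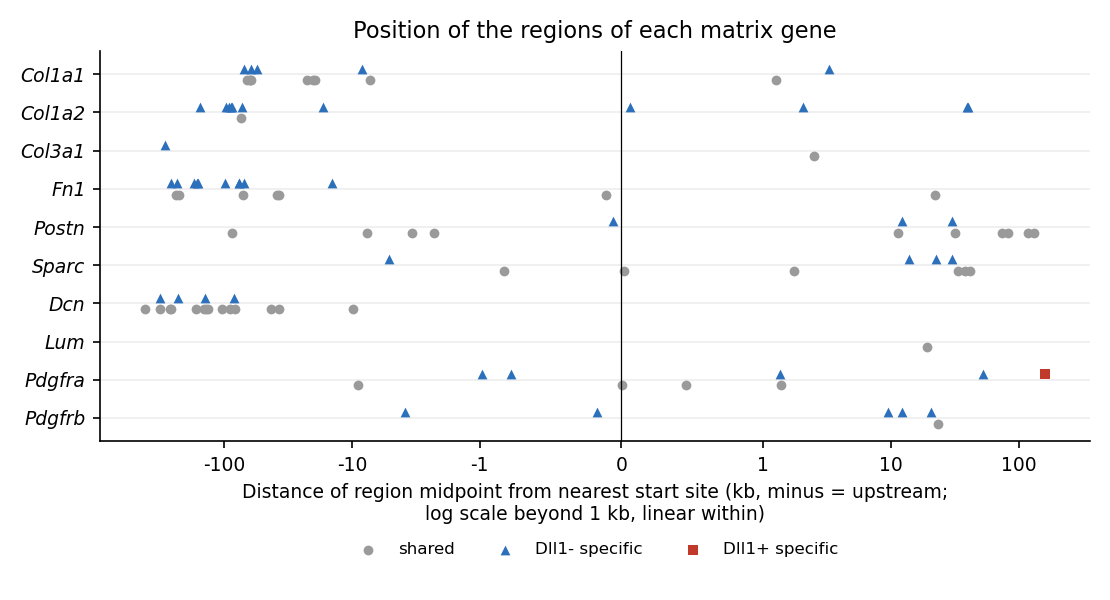
Each point is 1 region of a matrix gene, placed by the distance of its midpoint from the nearest TSS in kb on an axis that is logarithmic beyond 1 kb. Grey circles are shared, blue triangles Dll1- specific and the red square the 1 Dll1+ specific region, 160.3 kb downstream of Pdgfra. Col1a2 and Pdgfrb show blue triangles near the start site and 1 grey circle each, far from it.

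Promoters were compared next. A promoter row was found in the Dll1+ list for 2 of the 10 genes (Sparc and Pdgfra) and in the Dll1- list for 6 (Col1a2, Fn1, Postn, Sparc, Pdgfra and Pdgfrb). Of all 21840 protein-coding genes, 60.3% had one in the Dll1+ list, compared with 62.8% for Dll1-, so the count of matrix genes was near the background in the Dll1- list and below it in the Dll1+ list. A promoter row in the Dll1- list alone was found at 4 of the 10 genes, against 3.18% of all genes. Rows were missing from both lists at Col1a1, Col3a1, Dcn and Lum. The count depends on the window: with 2500 bp each side of the TSS, 6 genes had a Dll1+ row and 8 had a Dll1- row, with Col1a2 and Pdgfrb still without one in the Dll1+ list. Reads at the 4 Dll1- only promoters were few, from 33 at Postn to 64 at Fn1.

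Shared matrix regions had ranks that differed in both directions. The percentile in the Dll1+ list minus that in the Dll1- list had a median of 0.354 over the 54 shared matrix regions, against -1.67 over all 79153 shared regions. Its sign was not stable: it was -1.03 without Dcn, -1.23 within 50 kb and -0.994 when ranks were taken by -log10 p. It was 7.52 when the Dll1- list was scaled to the depth of the Dll1+ list and kept past the 10th percentile. A rank more than 10 points higher in the Dll1+ list was seen in 12 of 54 (22.2%), against 15.2% of all shared regions. Dcn alone supplied 7 of the 12. The opposite was seen in 11 of 54 (20.4%), against 25.1%. The median log2 ratio of reads over background was 0.296 for the matrix genes and 0.241 for all shared regions, with a range of -1.20 to 1.40 among the former. The count interval of this ratio lay above 0 in 15 of 54 regions (27.8%), against 31.5% of all shared regions with recovered reads. It lay below 0 in 2 of 54, one at Sparc and one at Col1a1, against 6.96%. Above the 90th percentile in both lists were 7 of the 54 (13.0%), at Fn1, Postn, Sparc and Dcn, a share near the 13.7% of all shared regions.

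**Figure D3:**
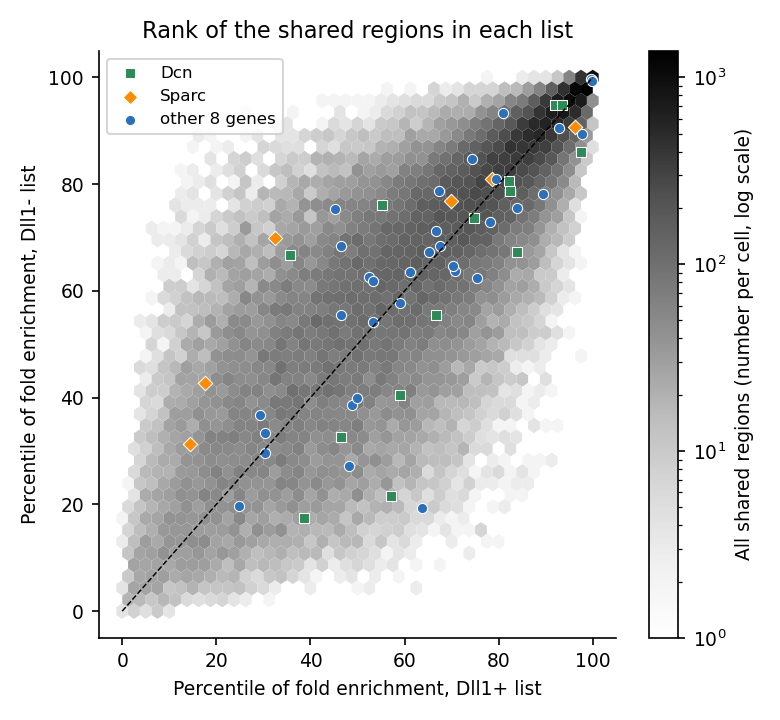
Each coloured point is a shared region of a matrix gene, with its percentile of fold enrichment in the Dll1+ list on the x axis and in the Dll1- list on the y axis, over all shared regions in grey on a logarithmic shade scale. The 54 points lie on both sides of the dashed line of equal rank, with 5 of 6 Sparc regions above it and 10 of 14 Dcn regions below it.

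The Dll1- specific matrix regions were of moderate strength. Fold enrichments ran from 2.00 to 8.17, with a median percentile of 39.8 against 32.6 for all Dll1- specific regions. A percentile above 50 was reached by 14 of 47 (29.8%), against 22.3% of all Dll1- specific regions, and Col1a2 supplied 7 of the 14. Of the 47, 0 were in the strongest decile of rows. Most were distal: 31 of 47 were intergenic, 10 lay in introns or exons and 6 in promoters of any transcript. The 6 include the promoter of the non-coding gene Gm8883, 234.8 kb upstream of Fn1. The 66.0% intergenic compares with 37.0% of all Dll1- specific regions and 72.2% of the shared matrix regions. Within 50 kb of a TSS, 23 of 53 matrix regions (43.4%) were Dll1- specific and 0 were Dll1+ specific, against 23.6% Dll1- specific among all regions within that distance. A Dll1+ row lay within 1 kb of 10 of the 47, and the median distance to the nearest Dll1+ row was 10849 bp.

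To show what depth allowed, the reads and background of each Dll1- specific region were divided by 1.93 and the resulting -log10 p was placed among the rows of the Dll1+ list. At that depth the 47 regions would have stood between percentiles 1.69 and 52.3, with a median of 20.6, against 15.1 for all Dll1- specific regions. Above the 10th percentile lay 35 of 47 (74.5%), against 69.4% of all Dll1- specific regions. Sparc had the highest median (47.5), followed by Col1a1 (35.2) and Col1a2 (28.8), while Dcn (7.12) and Fn1 (10.8) had the lowest. Regions at the foot of this scale are those that the shallower list would be least likely to hold. When rows of the scaled Dll1- list had to reach the 10th percentile, a setting chosen after seeing the data, the matrix genes had 35 Dll1- specific and 4 Dll1+ specific of 90 regions, and Col1a2 had 10 Dll1- specific regions. The share was then 38.9%, against 18.4% of all regions.

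**Figure D4:**
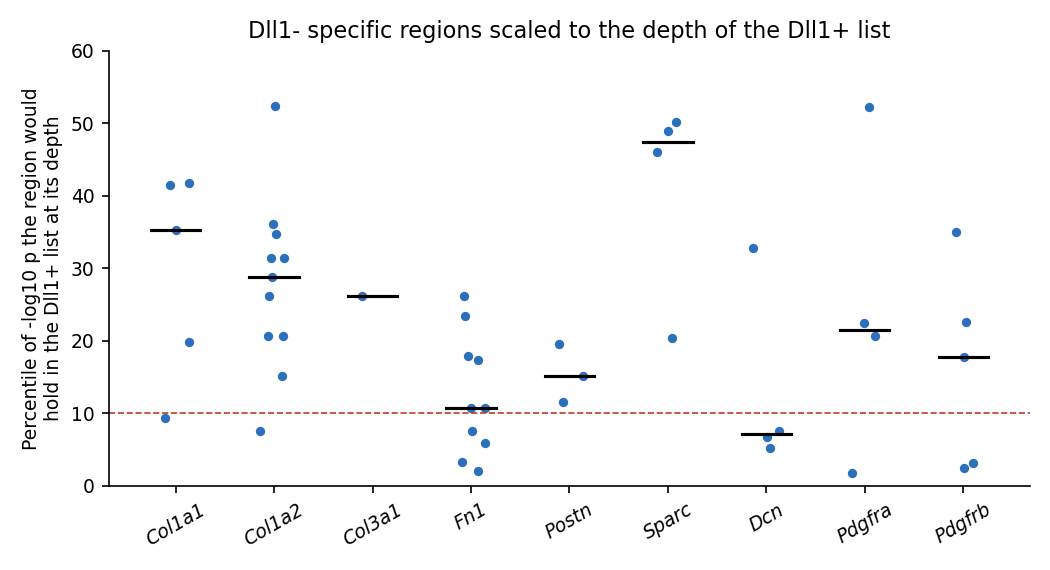
Each point is a Dll1- specific region, placed by the percentile its -log10 p would hold in the Dll1+ list after scaling to the depth of that list, and bars are medians by gene. The dashed line marks the 10th percentile. Dcn points are mostly below it, Fn1 points lie on both sides, and 10 of the 11 Col1a2 points and all 4 Sparc points lie above it.

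The sequence TGACTCA, the binding sequence of the AP-1 factors, which act in fibroblasts and epithelium alike, was looked for within 100 bp of each summit on both strands. It was present in 15 of 47 Dll1- specific matrix regions (31.9%, 20.4 to 46.2%), against 30.4% of all Dll1- specific regions. In shared matrix regions it was present in 10 of 54 (18.5%, 10.4 to 30.8%), against 15.4% of all shared regions. In both classes the share at the matrix genes was near that of all regions. The 15 regions were spread over 8 genes, with 5 at Fn1 and at most 2 at each of the others. The strongest Dll1- specific region held it at 4 genes, Col3a1, Fn1, Postn and Pdgfrb. For the first 3 of these the 100 bases each side of the summit are given, plus strand, with the site in capitals. The windows are chr1:45022220-45022420 for Col3a1, chr1:71824494-71824694 for Fn1 and chr3:54373279-54373479 for Postn. TGAGTCA is the same site read on the other strand.
Col3a1 window: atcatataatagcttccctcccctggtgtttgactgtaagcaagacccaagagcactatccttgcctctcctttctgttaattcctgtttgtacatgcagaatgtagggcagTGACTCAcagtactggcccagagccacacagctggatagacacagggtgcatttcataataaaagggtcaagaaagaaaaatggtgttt
Fn1 window: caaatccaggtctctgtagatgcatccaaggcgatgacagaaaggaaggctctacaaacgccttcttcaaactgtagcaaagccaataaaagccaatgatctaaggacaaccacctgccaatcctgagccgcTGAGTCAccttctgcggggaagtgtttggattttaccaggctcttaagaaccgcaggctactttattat
Postn window: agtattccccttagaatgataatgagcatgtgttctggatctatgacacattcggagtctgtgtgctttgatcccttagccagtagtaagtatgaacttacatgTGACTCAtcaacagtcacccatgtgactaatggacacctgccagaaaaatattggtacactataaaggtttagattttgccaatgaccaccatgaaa
The first base of the site lay 12 bases after the summit at Col3a1, 32 at Fn1 and 4 at Postn. A match is a description of the sequence and not evidence of binding.

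Other genes of the stroma were counted against the same backgrounds, which are 24.6% Dll1- specific and 9.01% Dll1+ specific regions and 51.7% of genes with more Dll1- specific regions. For 34 further stromal matrix genes, such as Col5a1, Thbs1 and Ccn2, 134 of 376 regions (35.6%, 31.0 to 40.6%) were Dll1- specific and 28 (7.45%) Dll1+ specific. The largest excesses were at Thbs1, which encodes thrombospondin 1 (16 against 2), Col5a1, a chain of type V collagen (14 against 1), and Ccn2, a growth factor-binding matrix protein (10 against 1). Of the 34 genes, 26 had more Dll1- specific and 3 more Dll1+ specific regions, the latter set against 11.3% of all genes. Promoter rows were in the Dll1- list alone for 7, against 3.18% of all genes, and in the Dll1+ list alone for 1. Basement membrane genes, many of them also used by epithelium, had 72 Dll1- specific (31.9%) and 23 Dll1+ specific (10.2%) of 226 regions, with Col4a2 (12 against 3), Hspg2 (9 against 0) and Col18a1 (7 against 0) leading. Of these 20 genes 13 had more Dll1- specific and 5 more Dll1+ specific regions, among them the type IV collagen genes Col4a6 (2 against 4) and Col4a5 (0 against 2).

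The marker lists of cell types were counted in the same way, beside 24.6% Dll1- specific and 9.01% Dll1+ specific among all regions. Fibroblast markers had 70 Dll1- specific and 21 Dll1+ specific of 197 regions (35.5%, 29.2 to 42.4% Dll1- specific), led by Twist2 (14 against 1), Cxcl12 (14 against 2) and Meox1 (8 against 0). Their Dll1+ specific share was 10.7%. Of the 19 fibroblast markers with a region, 14 had more Dll1- specific regions, against 51.7% of all genes, and 2 more Dll1+ specific ones, Meox2 (2 against 5) and Vim (2 against 3), against 11.3%. Pericyte and smooth muscle markers had 29 and 6 of 81 (35.8%), led by Myh11 (6 against 1), Cspg4 (5 against 1) and Des (4 against 0). Of these 12 genes 7 had more Dll1- specific regions, against 51.7% of all genes. Abcc9 (2 against 3) had more Dll1+ specific ones, and at 4 genes the counts were equal. Among the cell types targeted by the depletion, endothelial markers had 48 and 8 of 138 regions (34.8%, 27.3 to 43.0%), led by Flt1 (7 against 0). Immune markers had 18 and 4 of 55 (32.7%), led by Csf1r (5 against 0), and their interval of 21.8 to 45.9% includes the share of all regions. Luminal epithelial markers had a lower share, with 29 Dll1- specific and 19 Dll1+ specific of 242 regions (12.0%, 8.47 to 16.7%). Basal markers had 38 and 13 of 141 (27.0%, 20.3 to 34.8%). Gene by gene, 11 of the 18 luminal markers had more Dll1- specific regions and 2 more Dll1+ specific ones, near the shares of all genes. These counts were 10 and 0 of 12 basal markers and 13 and 1 of 15 endothelial markers. They were 8 and 1 of the 14 immune markers with a region.

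All 18 luminal promoters had a row in both lists, and the keratin and adhesion genes Krt8, Krt18, Epcam and Cdh1 had fold enrichments of 6.15 to 15.2 in Dll1+ cells and 6.39 to 16.2 in Dll1- cells, so defining luminal markers were present in both sorts. Of 20 fibroblast markers, 5 had a promoter row in Dll1+ cells and 9 in Dll1- cells, against 60.3 and 62.8% of all genes. The counts were 7 and 10 of 12 pericyte and smooth muscle markers, 6 and 7 of 12 basal markers, 3 and 4 of 20 immune markers, and 3 and 3 of 15 endothelial markers. Defining markers without a promoter row in either list included Thy1 and Pdpn of fibroblasts, Ptprc of leukocytes, and Pecam1 and Cdh5 of endothelium. They also included Krt5, Krt14 and Trp63 of basal cells and Cspg4 of pericytes. Twist2 and Meox1 of the fibroblast list had none either. Other markers of these cells did have one. In both lists these were Vim, Gsn, Cxcl12, Twist1 and Osr1 of the fibroblast list, with Gsn the strongest at 21.5 in Dll1+ and 17.7 in Dll1- cells, and in the Dll1- list alone these were Tbx18 (8.68 from 99 reads), Pi16 (4.02), Meox2 (3.05) and Fap (2.81). Cd68, Cd14 and S100a8 of myeloid cells and Kdr and Flt1 of endothelium had rows in both lists, with S100a8 at 14.8 in Dll1+ and 15.5 in Dll1- cells. The Csf1r promoter, of the macrophage receptor, had a row in the Dll1- list alone, with a fold enrichment of 8.53. The part of fibroblasts, pericytes or other cells in the matrix gene result was not tested.

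**Figure D5:**
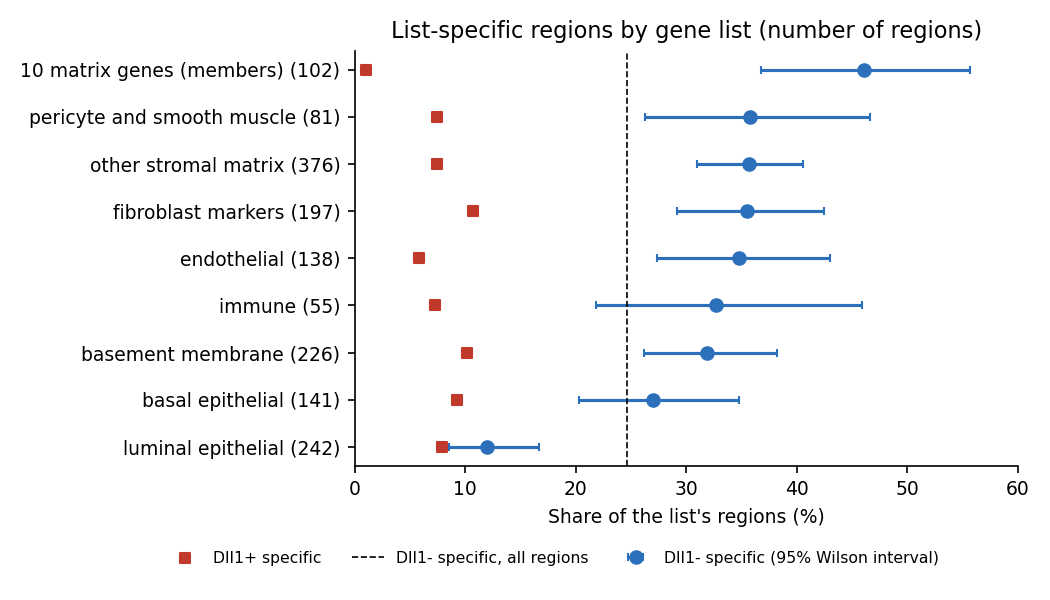
For each gene list, with its number of regions in brackets, the blue point is the percentage of regions that were Dll1- specific with its 95% Wilson interval and the red square the percentage that were Dll1+ specific. The dashed line is the 24.6% of all regions. The 10 matrix genes have the highest Dll1- specific percentage of the lists drawn (46.1%) and the lowest Dll1+ specific percentage (0.980%), and the luminal list lies below the line at 12.0%.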

How the data were processed

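ATAC-seq had been performed on 3 Dll1+ and 4 Dll1- samples. The authors processed the replicates of a population jointly with the ENCODE pipeline and deposited its optimal peak list (132872 rows for Dll1+ and 148923 for Dll1-), so per-sample values were not analysed here. Build names in the submitters' processing notes are mm10 and GRCm38, and the peak caller, thresholds and versions are not given in the sources used here. Deposited values were the fold enrichment (a ratio), the -log10 p-value, the -log10 q-value (not used) and a capped score derived from it (not used). The per-sample read counting that the authors describe was not analysed here.

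Rows of both lists that overlapped or touched were merged, and each merged region was assigned by its midpoint to the nearest TSS of a protein-coding transcript in basic GENCODE M21. A region takes the values of its strongest row in each list. The promoter window took the 1000 bp before and the 100 bp after a TSS, and a gene had a promoter row when any row overlapped that window by at least 1 bp. Reads and background at each summit were recovered from the fold and -log10 p under a Poisson model, with the fold equal to reads plus 1 over background plus 1, and all but 1 row were matched, within a tolerance of 0.001 on the -log10 p or a small relative tolerance for high values. The steps were checked on simulated data. Python 3.11.15, numpy 2.4.6, pandas 2.3.3, scipy 1.17.1 and matplotlib 3.10.9 were used.

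No p-value was computed, because each population has 1 list. All 10 members were named, with up to 3 genes of each comparison list that had the largest excess of Dll1- specific regions. Csf1r, Krt8, Krt18, Epcam, Cdh1 and most markers named for promoters were picked as known markers. Meox2, Vim, Tbx18, Abcc9, S100a8, Krt5, Krt14, Trp63, Cspg4, Col4a5 and Col4a6 were named after their values were seen. The members and gene lists were chosen with earlier results of these data known. The comparison lists overlap in part (Col17a1 is in 2) and all 10 members are themselves used by fibroblasts or pericytes. One listed older symbol, Ctgf, was not in the annotation, where the gene is Ccn2. Promoter sequences came from RefSeq (GRCm38.p6), which matched 5 of the 10 members.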

Additional observations from a re-analysis of the deposited data

How the results depend on the processing

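Each list pools the samples of a population, which limits every value above: no fit without single samples was run, and the spread between tumours was not examined. No paired analysis was possible because samples were pooled in the lists analysed, although the labels give 3 tumours in both populations. At its lower depth the Dll1+ list holds fewer weak regions.

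Under the 8 alternatives run for the Dll1- specific count, the share of matrix regions that were Dll1- specific ranged from 33.3 to 51.2%, above the share of all regions in each (17.6 to 28.0%). The 47 Dll1- specific regions became 19 with rows at or above the median fold enrichment, 31 with the 100000 rows of highest -log10 p in each list and 23 within 50 kb, where fewer rows or regions entered. The 1 Dll1+ specific region became 3 with reciprocal overlap of at least 50%, 3 with rows at or above the median, 7 with 100000 rows, 0 within 50 kb and 4 with the scaled Dll1- list past the 10th percentile. With 100000 rows, Dcn had 4 Dll1+ and 2 Dll1- specific regions and Postn 1 and 0, so the direction at these genes turned. With rows at or above the median it turned at Postn (1 and 0), Dcn had 2 of each, and Pdgfra and Pdgfrb had 0 of both. Past the 10th percentile it turned at Dcn (2 Dll1+ and 1 Dll1-). Genes with more Dll1- specific regions were 7, 5 and 8 of the 10 in these settings, against 35.4, 39.0 and 37.7% of all genes. Scaling the Dll1- list with the lowest -log10 p of the Dll1+ list as threshold changed neither count (47 and 1), since nearly all rows still passed. The median rank difference became 7.52 past the 10th percentile, which removes weak Dll1- rows and so lowers the ranks of the others. It was between -1.23 and 0.592 under the other settings, so its sign is not fixed. Of the 10 genes, those with a Dll1+ promoter row were 6 with 2500 bp each side, 1 with rows at or above the median and 1 with 100000 rows (Pdgfra in both). Where no cause is named, the cause was not tested.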

Other observations

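Other sequences were counted in the same windows of 100 bp each side of the summit. The E-box CAGATG was present in 13 of 47 Dll1- specific matrix regions (27.7%, 16.9 to 41.8%) and 18.5% of all Dll1- specific regions, the TEAD sequence GGAATG in 6 (12.8%) and 15.0%, and the RUNX sequence TGTGGT in 7 (14.9%) and 16.6%. In the 54 shared matrix regions, GGAATG was present in 12 (22.2%, 13.2 to 34.9%), against 14.5% of all shared regions. All were searched on both strands. Median GC content around the summit was 49.8% in Dll1- specific and 48.5% in shared matrix regions, against 49.3% and 50.7% over all regions of those classes, and median width was 293 and 533 bp, against 292 and 568 bp.

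Col1a1 and Col1a2 encode the chains of type I collagen, which can also form from the product of Col1a1 alone. Their loci differed in these lists: 9 of 14 Col1a1 regions and 1 of 12 Col1a2 regions were shared. With rows at or above the median fold enrichment, Col1a2 had 8 Dll1- specific regions and 0 shared, and Col1a1 had 2 and 5. Whether the regions assigned to Col1a1 act on that gene was not tested.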
